A study of Mus musculus with 17 samples.

Results

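Expression of 8 genes was followed in 17 RNA-Seq libraries of mouse peritoneal macrophages (PMs): Hmga1, Hmga1b, Tmem178, Rilpl1, Lox, Klk8, Ctla2b and A530064D06Rik. They are 8 of the 21683 rows of the deposited expression table. All but Hmga1 had been picked because their levels differed between macrophages with and without IKKβ under Tat while differing less between Tat and PBS, and Hmga1 was added as the near-identical copy of Hmga1b. They were thus chosen by their levels in the 3 groups compared here, so their own values are a description and carry no test. All 8 passed the filter on low values (at least 1 TPM in at least 5 libraries), which left 10451 tested genes.

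The study asked whether IKKβ in myeloid cells is needed for the response of macrophages to the HIV protein Tat. PMs came from 8-week-old C57BL/6 mice with floxed IKKβ alleles, after 1 mL of 3% thioglycollate given into the peritoneum. After 4 hours of attachment, floxed cells without Cre received PBS (called FF PBS, n = 6) or 100 nM Tat (FF Tat, n = 6) for 12 hours, and floxed cells with Cre in the myeloid lineage received Tat in the same way (ΔMye Tat, n = 5). In ΔMye mice, 1 copy of the lysozyme locus holds the Cre recombinase that removes IKKβ in myeloid cells, so ΔMye cells differ from FF cells by both the deletion and that allele. PBS-treated ΔMye cells were not analysed here, so the effect of the genotype without Tat cannot be told apart from its effect under Tat. The paper's heatmap legends describe the columns as biological replicates of mice. Whether cells of several mice were pooled, or cells of 1 mouse split between PBS and Tat, is not stated. The spread between libraries may be partly technical.

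IKKβ is the kinase that marks the inhibitors of NF-κB for destruction, which frees NF-κB to enter the nucleus and switch on inflammatory genes in macrophages. The 8 genes share no single pathway. Hmga1 and Hmga1b encode architectural chromatin proteins whose AT-hooks bind the minor groove of AT-rich DNA. Tmem178 is a membrane protein of the endoplasmic reticulum that restrains calcium signalling to NFATc1 in the osteoclast lineage. Rilpl1 is a RILP-like adaptor that binds Rab GTPases phosphorylated by LRRK2. Lox is the secreted lysyl oxidase that cross-links collagen and elastin. Klk8 is neuropsin, a secreted serine protease of the kallikrein family. Ctla2b resembles the propeptide of cathepsins and belongs to a small family of cysteine protease inhibitors. No role is given here for A530064D06Rik.

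The sequence that Hmga1 and Hmga1b share is shown first, because the levels of both genes depend on how reads from it were divided. In the GRCm38 annotation (GENCODE M21), Hmga1 lies on the plus strand at chr17:27556497-27563674 and Hmga1b on the plus strand at chr11:120762794-120764419, where it is a single exon of 1626 bases with no intron. The coding sequence of Hmga1b (chr11:120762889-120763209) and the long coding sequence of Hmga1 (4 coding exons between positions 27559569 and 27562488 of chromosome 17) both have 321 bases, for 107 residues, and differ at 0 positions. The first 300 bases are given. Capitals mark the 33 bases, positions 103 to 135 of the coding sequence, that the shorter Hmga1 coding sequence of 288 bases lacks.
Hmga1 and Hmga1b: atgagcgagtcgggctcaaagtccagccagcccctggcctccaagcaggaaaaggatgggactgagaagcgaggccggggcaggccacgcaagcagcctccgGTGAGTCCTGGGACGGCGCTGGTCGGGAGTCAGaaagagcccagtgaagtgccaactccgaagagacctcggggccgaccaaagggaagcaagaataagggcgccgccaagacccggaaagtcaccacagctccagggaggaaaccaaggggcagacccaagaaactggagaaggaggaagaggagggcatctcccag
Of the 1596 different 31-base words in Hmga1b transcripts, 1479 (92.7%) also occur in Hmga1 transcripts. The other 117 all lie after the coding sequence. Of the Hmga1 words, 62.1% occur in Hmga1b. The 2 genes can thus be told apart only by reads that reach beyond the coding sequence of Hmga1b or into the parts that are particular to Hmga1 transcripts, and the sum of their TPM depends on the division only through the lengths of the transcripts that reads were given to.

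The upstream sequences of Hmga1b and Tmem178 are shown because these are the members with the largest difference between the Tat groups in each direction. They are the 250 bases before the RefSeq start site (GRCm38.p6, plus strand), chr11:120762544-120762793 for Hmga1b and chr17:80944382-80944631 for Tmem178. Capitals mark the AP-1 word TGACTCA in Hmga1b, 237 bases before the start, and a match to the κB consensus, read on the minus strand, 103 bases before the start of Tmem178.
Hmga1b: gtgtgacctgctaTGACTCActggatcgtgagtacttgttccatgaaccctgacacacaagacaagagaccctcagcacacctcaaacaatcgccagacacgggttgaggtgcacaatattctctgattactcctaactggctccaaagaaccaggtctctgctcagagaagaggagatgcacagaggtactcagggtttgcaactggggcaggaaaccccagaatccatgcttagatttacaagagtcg
Tmem178: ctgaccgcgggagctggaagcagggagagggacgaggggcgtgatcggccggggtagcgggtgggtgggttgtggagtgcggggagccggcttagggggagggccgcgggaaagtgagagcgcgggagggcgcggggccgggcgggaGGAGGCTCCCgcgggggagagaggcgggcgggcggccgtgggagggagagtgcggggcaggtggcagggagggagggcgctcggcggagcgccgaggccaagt
RefSeq start windows of 300 bases, 250 before and 50 after the start, were found for 7 of the 8 genes. On either strand, TGACTCA occurred in the windows of Hmga1b and Ctla2b and in 5.2% of 32851 windows. The κB consensus occurred in the windows of Tmem178 and of 1 of the 2 start sites of Hmga1, and in 8.46% of all windows. TATAAA occurred in none of the members' windows and in 13.6% of all. The motifs did not overlap each other. GC content was 77.7% in Tmem178, 72.3% and 74% at the 2 starts of Hmga1 and 71% in Rilpl1, against 51.3% in Hmga1b, 50% in Ctla2b and a median of 52.7% over all windows. These matches describe the letters only.

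The targeted gene was looked at first. Ikbkb, which encodes IKKβ, was at 21.6 to 25.4 TPM in FF Tat and at 12.8 to 19.9 TPM in ΔMye Tat, with no overlap (log2 difference of -0.51, adjusted p = 4.51e-05, limma over all tested genes). A gene-level TPM does not separate the deleted part of the transcript from the rest. Lyz2, which Cre disrupts on 1 copy, had means of 22382, 6993 and 4333 TPM in FF PBS, FF Tat and ΔMye Tat. TPM add up to 889318 to 903576 per library over the rows kept, and the sequencing depth is unknown. The median tested gene differed by -0.65 on the log2 scale between FF Tat and FF PBS and by 0.22 between ΔMye Tat and FF Tat, so values after scaling the libraries by median ratios are given beside the main directions that flip. No 2 libraries were identical.

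The label under which these genes were grouped, as changed by genotype but not by Tat, held for some of them. Between ΔMye Tat and FF Tat, 7 of the 8 met the rule for a call (adjusted p under 0.01 and a fold over 3), 2 higher and 5 lower, where 0.756% of all tested genes met it (0.44% higher and 0.316% lower). Of all tested genes these were 46 higher and 33 lower, and after scaling 27 higher and 63 lower. The levels of the 2 Tat groups did not overlap for any of the 8, as for 36.6% of all tested genes. Between FF Tat and FF PBS the levels did not overlap for 4 of the 8 (Hmga1, Rilpl1, Lox and Ctla2b), as for 77.6% of tested genes. None of the 8 passed a 3-fold difference with Tat, and 24.6% of tested genes were called there. Between ΔMye Tat and FF PBS the levels overlapped only for Hmga1 and Rilpl1, and 67.7% of tested genes did not overlap. These overlaps are those of the deposited TPM. After scaling, Hmga1 overlapped between the Tat groups. Between the FF groups, Lox then overlapped, and Hmga1b and A530064D06Rik did not. Between ΔMye Tat and FF PBS, Ctla2b then overlapped and Hmga1 did not. Since these contrasts chose the genes, nothing is read from the counts.

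**Figure D1:**
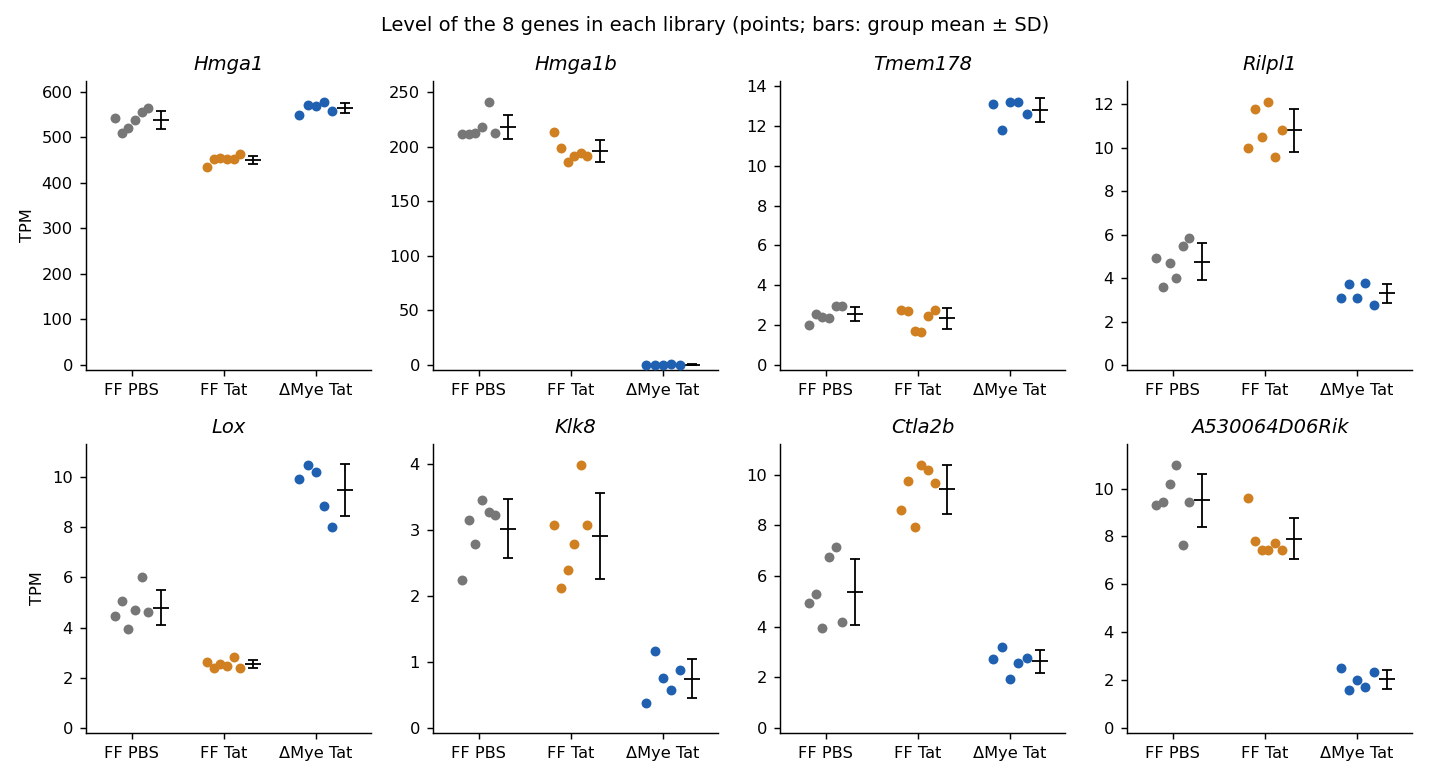
TPM (y axes, linear from 0) of each of the 8 genes in each library (points), by group (x axes), with the group mean ± SD in black. The ΔMye Tat points stand clear of the FF Tat points in all 8 panels, and the FF Tat points stand clear of the FF PBS points for Hmga1, Rilpl1, Lox and Ctla2b.

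Hmga1b was almost lost from the ΔMye libraries. Its level was 212 to 241 TPM in FF PBS (median 213, mean 218 ± 11.5 SD) and 186 to 214 TPM in FF Tat (median 193, mean 196 ± 9.65). In the 5 ΔMye Tat libraries it was 0, 0.132, 0.209, 0.939 and 0.166 TPM. All 12 FF libraries were therefore at 186 TPM or more and all 5 ΔMye libraries below 1 TPM. The FF groups overlapped each other (log2 difference of -0.15 with Tat, 0.48 after scaling). After scaling they stood apart, at 160 to 179 TPM in FF PBS and 224 to 252 TPM in FF Tat. The log2 difference between ΔMye Tat and FF Tat was -9.41 with the pseudocount of 0.1 TPM used here and -7.30 with a pseudocount of 1, so the size is set by the pseudocount and the direction is not.

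Hmga1, the copy on chromosome 17, went the other way by a much smaller amount. It was 510 to 563 TPM in FF PBS (median 539), 435 to 462 TPM in FF Tat (median 451) and 549, 570, 568, 577 and 557 TPM in the 5 libraries of ΔMye Tat. All ΔMye Tat libraries exceeded all FF Tat libraries in the deposited TPM, while FF PBS and ΔMye Tat overlapped. Both changed after scaling. FF Tat (511 to 566 TPM) and ΔMye Tat (545 to 622 TPM) then overlapped, and FF PBS (387 to 442 TPM) lay below both. The mean was 564 ± 11 TPM (SD, n = 5) in ΔMye Tat and 451 ± 8.74 TPM (n = 6) in FF Tat, 1.25-fold, a log2 difference of 0.32 that was 0.11 after scaling. Against FF PBS, FF Tat was at 0.838 of the mean, a log2 difference of -0.25 that turned to 0.38 after scaling.

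**Figure D2:**
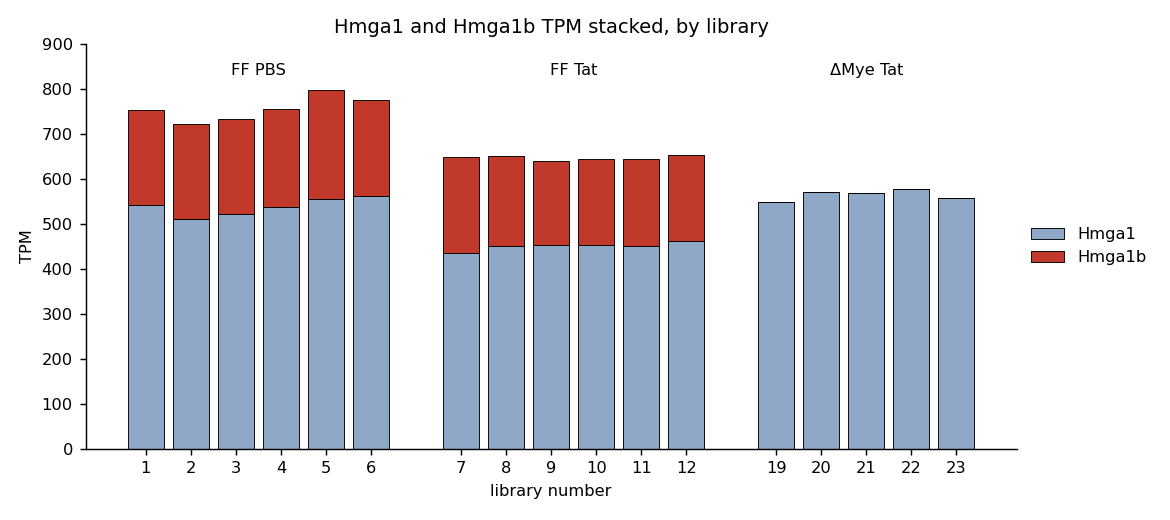
Stacked bars of Hmga1 and Hmga1b TPM (y axis, from 0) in each of the 17 libraries (x axis, by library number and group). Hmga1b makes up 27.4% to 33% of the bar in the 12 FF libraries and at most 0.162% in the 5 ΔMye Tat libraries, where the bars are the shortest.

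The sum of the 2 copies, which depends less on how shared reads were divided, was lower in ΔMye Tat. It was 722 to 797 TPM in FF PBS, 640 to 654 TPM in FF Tat and 549 to 578 TPM in ΔMye Tat, so the 3 groups did not overlap. Against FF Tat, the mean of ΔMye Tat was 114 TPM higher for Hmga1 and lower for Hmga1b by its whole level of 196 TPM, and the mean sum was 565 TPM against 647 TPM, or 87.3%. The share of Hmga1b in the sum was 28.8% ± 0.967 (SD, n = 6) in FF PBS, 30.3% ± 1.4 (n = 6) in FF Tat, and 0% to 0.162% in the ΔMye Tat libraries. The gain of Hmga1 was thus smaller than the loss of Hmga1b. After scaling, the log2 ratio of the mean sums was -0.41 between ΔMye Tat and FF Tat, 0.41 between FF Tat and FF PBS and 0.00 between ΔMye Tat and FF PBS, where the deposited TPM gave -0.20, -0.23 and -0.42, so only the lower sum in ΔMye Tat than in FF Tat kept its direction.

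Tmem178, on the plus strand at chr17:80944632-81001816, had the largest difference upward of the 8 in ΔMye Tat. It was 2.02 to 2.95 TPM in FF PBS (median 2.49), 1.65 to 2.76 TPM in FF Tat (median 2.6) and 13.1, 11.8, 13.2, 13.2 and 12.6 TPM in ΔMye Tat. The 2 FF groups overlapped, and the lowest ΔMye library, at 11.8 TPM, lay far above the highest FF library, at 2.95 TPM. The ratio of means between ΔMye Tat and FF Tat was 5.47 (12.8 ± 0.594 against 2.34 ± 0.524 TPM), a log2 difference of 2.43 with an SE of 0.14. Tat against PBS gave a log2 difference of -0.14, which was 0.47 after scaling.

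In the deposited TPM, Lox, on chromosome 18, differed in both contrasts, in opposite directions. It was 3.95 to 6 TPM in FF PBS (median 4.67), 2.38 to 2.83 TPM in FF Tat (median 2.5) and 9.92, 10.5, 10.2, 8.84 and 8 TPM in ΔMye Tat. The order was FF Tat, FF PBS, ΔMye Tat with no overlap between any neighbours in it. The mean of ΔMye Tat was 3.73 times that of FF Tat and 1.98 times that of FF PBS, and FF Tat was at 0.53 of FF PBS. After scaling, the log2 difference between FF Tat and FF PBS was -0.27 in place of -0.88. The 2 groups then overlapped, at 2.88 to 3.4 TPM in FF Tat and 3.13 to 4.46 TPM in FF PBS. Lox is known as a product of fibroblasts, and bulk RNA cannot tell fewer cells of a type from less RNA per cell. The 14 fibroblast and mesothelial markers summed to 33.3 to 38.3 TPM in FF Tat and to 21.2 to 26.5 TPM in ΔMye Tat. Of the 8 tested ones, 3 fell and the other 5 did not pass (after scaling, 0 rose and 5 fell). Their part in the level of Lox was not tested.

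Rilpl1, on the minus strand at chr5:124493080-124531391, was the member with the largest difference with Tat. It was 3.58 to 5.83 TPM in FF PBS (median 4.81), 9.57 to 12.1 TPM in FF Tat (median 10.7) and 3.1, 3.74, 3.08, 3.78 and 2.77 TPM in ΔMye Tat. FF Tat stood apart from both other groups, which overlapped each other. The mean was 2.27 times higher in FF Tat than in FF PBS (10.8 ± 0.983 against 4.75 ± 0.856 TPM), and 3.28 times higher in FF Tat than in ΔMye Tat. Of the 3 groups it was thus high in FF Tat alone, which is not the pattern of the grouping's label.

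Ctla2b, on the minus strand at chr13:60895350-60897447, had the same order of groups as Rilpl1. It was 3.95 to 7.15 TPM in FF PBS (median 5.11), 7.94 to 10.4 TPM in FF Tat (median 9.71) and 2.71, 3.19, 1.92, 2.55 and 2.75 TPM in ΔMye Tat. None of the 3 groups overlapped in the deposited TPM. After scaling, FF PBS (3.13 to 5.39 TPM) and ΔMye Tat (2.01 to 3.3 TPM) did. FF Tat was 1.75 times FF PBS and 3.59 times ΔMye Tat in the mean. In the annotation, 76.1% of the 31-base words of Ctla2b recur in transcripts of other genes. Of its words, 58.8% recur in Gm49391, which overlaps it on the same strand, and 26.3% in Ctla2a. The level of Ctla2b is thus uncertain to the extent that reads were split among them. The paper's supplement lists Gm49391 as lower with Tat, the direction opposite to that of Ctla2b here. The level of Gm49391 was not looked at here. Markers of T cells and innate lymphoid cells summed to 149 to 164 TPM in FF Tat and 159 to 174 TPM in ΔMye Tat. Of 7 tested, 4 rose and 3 did not pass (after scaling, 4 rose and 1 fell). Il7r made up most of that sum, at means of 149 and 152 TPM. Cd3e was at 0.724 and 1.79 TPM and Cd8a at 0.54 and 1.77 TPM. Mast cell markers summed to 32.6 to 44 TPM in FF Tat and 25.1 to 31.7 TPM in ΔMye Tat. Of 5 tested, 0 rose and 2 fell (after scaling, 0 rose and 3 fell). The part of either cell type in the level of Ctla2b was not tested.

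In the deposited TPM, Klk8 and A530064D06Rik, like Hmga1b and Tmem178, overlapped between the FF groups. Of these, Klk8 and Tmem178 still did so after scaling, and Hmga1b and A530064D06Rik did not. Klk8, on the plus strand at chr7:43797577-43803826, was 2.24 to 3.45 TPM in FF PBS (median 3.19), 2.12 to 3.99 TPM in FF Tat (median 2.92) and 0.375, 1.16, 0.752, 0.565 and 0.868 TPM in ΔMye Tat. The FF groups overlapped through most of their range, and the highest ΔMye library lay below the lowest FF library. The mean was 3.91 times higher in FF Tat than in ΔMye Tat, at a level near 1 TPM in the latter, where the spread was wide for its level (SD of 0.298 on a mean of 0.744 TPM). Klk8 overlaps 2310002F09Rik on the opposite strand, and whether the counting used strand is not given in the sources used here.

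A530064D06Rik, on the minus strand at chr17:48149126-48167275, was 7.66 to 11 TPM in FF PBS (median 9.44), 7.42 to 9.61 TPM in FF Tat (median 7.58) and 2.5, 1.58, 2, 1.69 and 2.32 TPM in ΔMye Tat. The FF groups overlapped, and all ΔMye libraries were lower. After scaling the FF groups no longer overlapped, at 5.7 to 8.83 TPM in FF PBS and 8.97 to 11.3 TPM in FF Tat. The mean was 3.92 times higher in FF Tat than in ΔMye Tat. With Tat, the log2 difference was -0.26 for A530064D06Rik and -0.07 for Klk8, and both turned upward after scaling, to 0.36 and 0.54. Of its 31-base words, 17% recur elsewhere, among them 5.12% in B430306N03Rik, a neighbour described below.

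**Figure D3:**
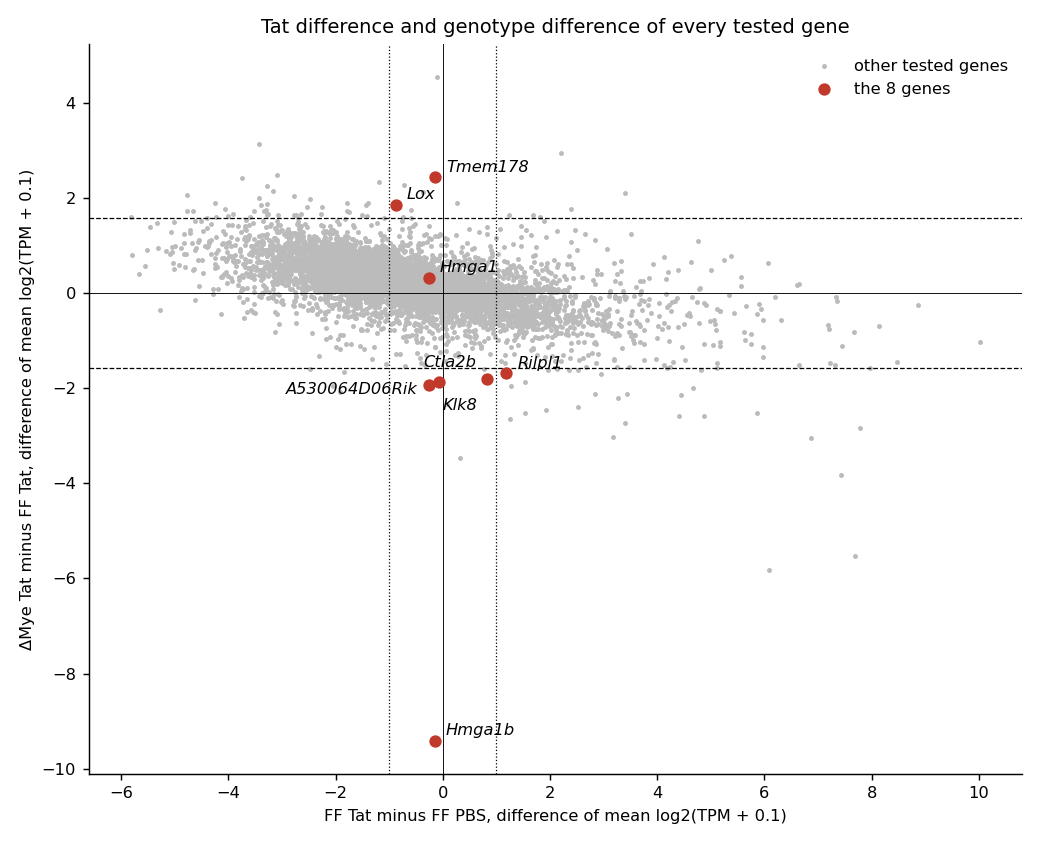
Each tested gene by its difference of mean log2(TPM + 0.1) between FF Tat and FF PBS (x axis) and between ΔMye Tat and FF Tat (y axis), with the 8 genes in red, dashed lines at a 3-fold difference and dotted lines at a log2 difference of 1. Hmga1b lies far below all other genes at -9.41, Tmem178 and Lox lie above the upper dashed line, Hmga1 lies among the mass of grey points, and Rilpl1 lies outside the dotted lines at 1.18.

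Few other genes had this pattern. Of all tested genes, 15 were called between the 2 Tat groups with a log2 difference under 1 in size between FF Tat and FF PBS, namely 6 of the 8 members (not Hmga1 or Rilpl1) and 9 others. The others, named here after their values were seen, included the mast cell tryptase Tpsab1 (log2 difference of -3.47 between ΔMye Tat and FF Tat), the macrophage receptor Timd4 (-1.60), the haemoglobin gene Hbb-bs (4.54) and the cathepsin Ctsw (2.12). After scaling there were 19 such genes, 5 of them members. The levels of Tpsab1 were 24.6, 30.7 and 2.68 TPM in the means of FF PBS, FF Tat and ΔMye Tat. The 7 mast cell markers, which do not include Tpsab1, summed to 32.6 to 44 TPM in FF Tat and to 25.1 to 31.7 TPM in ΔMye Tat. Tpsb2 made up the largest part of that sum, at means of 19.9 and 13.6 TPM, followed by Cma1 at 9.97 and 7.98 TPM. Of 5 tested mast cell markers, 0 rose and 2 fell (after scaling, 0 rose and 3 fell).

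The genes whose levels were most like those of each member over the 17 libraries, by Pearson's r on log2(TPM + 0.1), differed between members. These values are a description, since all 17 libraries share the group differences. With the group means removed, r of a member with its 3 closest genes was much lower. It ran from -0.29 (A530064D06Rik and Pdia6) to 0.57 (Klk8 and Pf4). Tmem178 was most like Cd74 (r = 0.984), H2-Ab1 (0.981) and Cmklr1 (0.969), of which Cd74 and H2-Ab1 belong to MHC class II presentation. The mean of Cd74 was 1256 TPM in FF PBS, 1186 TPM in FF Tat and 2716 TPM in ΔMye Tat. Lox was most like Pbxip1 (0.981), Sema4a (0.978) and Ciita (0.977), the transactivator of class II genes, whose means were 2.3, 0.966 and 5.28 TPM in the same order. Tmem178 and Lox each had a class II gene or its transactivator among their 3 closest genes. With the group means removed, r was 0.43 for Tmem178 and Cd74, 0.31 for Tmem178 and H2-Ab1 and 0.52 for Lox and Ciita.

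The members that were lower in ΔMye Tat had other closest genes. Hmga1b was most like Pdia6 (0.984), Tpsab1 (0.983) and Pf4 (0.975), and A530064D06Rik was most like Prnp (0.983), Pf4 (0.975) and Pdia6 (0.963). Klk8 was most like Pf4 (0.933), Hmga1b itself (0.933) and Pdia6 (0.925). Pf4, a platelet chemokine that macrophages also express, had means of 468, 375 and 152 TPM in FF PBS, FF Tat and ΔMye Tat, and Pdia6, an oxidoreductase of the endoplasmic reticulum, 138, 134 and 99.6 TPM. Rilpl1 was most like Ehd4 (0.950), Slc16a3 (0.948) and Tmem219 (0.948), Ctla2b most like Pgk1 (0.950), Slc16a1 (0.938) and Ly6e (0.934), and Hmga1 most like C1qb (0.967), Rrs1 (0.966) and Efhd2 (0.966). With the group means removed, r between the 28 pairs of members ran from -0.61 to 0.74 with a median of 0.10.

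Relatives and partners of the members, which the choice did not use, were then tested. Of 112 listed genes, 69 were tested. Between ΔMye Tat and FF Tat, 32 rose and 10 fell at an adjusted p under 0.01 (limma, all tested genes), with a median log2 difference of 0.24, where 38.8% of all tested genes rose, 8.87% fell and the median was 0.22. After scaling, 16 rose and 16 fell, against 16.4% and 18.8% of all tested genes. With Tat against PBS, 13 rose and 43 fell, with a median of -0.52 beside -0.65 for all tested genes, of which 17% rose and 67.6% fell. After scaling, 33 rose and 28 fell, with a median of 0.12, against 37.1% and 38.1% of all tested genes.

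Among the other HMG proteins, Hmga2, the closest paralog of Hmga1, fell in ΔMye Tat. Its level was 0.875 to 1.07 TPM in FF PBS, 2.19 to 2.59 TPM in FF Tat and 0.702 to 1.53 TPM in ΔMye Tat, so it rose with Tat (log2 difference of 1.18, adjusted p = 5.48e-07) and was lower in ΔMye Tat than in FF Tat (-1.02, adjusted p = 2.39e-05). Hmgn3, a nucleosome-binding HMG protein, fell by 0.86 (adjusted p = 0.00109). Of the 8 tested genes of this list, 3 rose, 2 fell and 3 did not pass (after scaling, 2 rose and 3 fell). Hmga1b, by contrast, overlapped between the FF groups in the deposited TPM, though not after scaling.

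Among lysyl oxidases, their substrates and processing enzymes, 8 of 14 genes were tested, of which 3 rose in ΔMye Tat, 2 fell and 3 did not pass (after scaling, 2 rose and 3 fell). Loxl3, a paralog of Lox, was 1.01 to 1.74 TPM in FF PBS and passed the filter only through that group. It was 0.112 to 0.24 TPM in FF Tat and 0.243 to 0.579 TPM in ΔMye Tat, below 1 TPM in both. Between the Tat groups its log2 difference was 0.77 (limma, adjusted p = 0.00707), and 0.63 with adjusted p = 0.0274 after scaling. With Tat against PBS, Loxl3 fell (log2 difference of -2.25, adjusted p = 7.68e-09). The collagen gene Col1a1, a substrate of Lox, fell by 0.79 (adjusted p = 0.000304) from a mean of 4.47 TPM to 2.59 TPM. The paralogs Loxl1, Loxl2 and Loxl4 were too low to be tested.

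Only 3 of 28 kallikreins and kallikrein partners were tested, so Klk8 stood among relatives that were mostly below the filter. Klk1b11 rose in ΔMye Tat (log2 difference of 0.95, adjusted p = 0.00147, and 0.75 with adjusted p = 0.0104 after scaling). Klk9, next to Klk8, was at a mean of 0.97 TPM in FF Tat and 0.938 TPM in ΔMye Tat, and did not pass (log2 difference of -0.11, SE 0.32).

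Of 9 tested cysteine protease inhibitors and cathepsins, 5 rose in ΔMye Tat, 3 fell and 1 did not pass (after scaling, 1 rose and 3 fell). The stefin Stfa3, an inhibitor of cysteine proteases, fell most, from a mean of 32.4 TPM to 5.68 TPM (log2 difference of -2.52, adjusted p = 2.55e-08), and had risen with Tat (1.54, adjusted p = 1.8e-06). Ctla2a, the paralog and neighbour of Ctla2b, was 1.09 to 4.2 TPM in FF PBS, 3.51 to 5.4 TPM in FF Tat and 1.74 to 2.64 TPM in ΔMye Tat, and fell between the Tat groups (-0.89, adjusted p = 0.004). Ctla2a and Ctla2b share transcript sequence, so these are not separate measurements.

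In the RILP family and LRRK2-Rab list, 10 of 16 tested genes rose in ΔMye Tat and 6 did not pass (after scaling, 4 rose and 2 fell). Rab7b, a late endosomal GTPase, rose from a mean of 2.15 TPM to 6.21 TPM (log2 difference of 1.49, adjusted p = 3.21e-09). Rilp, which links Rab7 to dynein, was 0.224 to 1.25 TPM in FF Tat and 1.4 to 2.45 TPM in ΔMye Tat (1.29, adjusted p = 0.000267). Rilpl2, the closest relative of Rilpl1, was abundant, at 211 to 229 TPM in FF Tat and 266 to 284 TPM in ΔMye Tat (0.30, adjusted p = 1.5e-07), and its difference was 0.08 after scaling (adjusted p = 0.145). With Tat, Rilp and Rilpl2 fell (log2 differences of -1.98 and -1.41, adjusted p = 2.61e-07 and 2.22e-19), while the level of Rilpl1 was higher.

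For the calcium and NFAT list around Tmem178, 6 of 17 tested genes rose, 1 fell and 10 did not pass (after scaling, 4 rose and 2 fell). Ppp3r1, the regulatory subunit of calcineurin, rose by 0.76 (adjusted p = 1.03e-10), and Itpr1, a calcium release channel of the endoplasmic reticulum, fell by 0.75 (adjusted p = 0.00308). The paralog Tmem178b was too low to be tested.

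**Figure D4:**
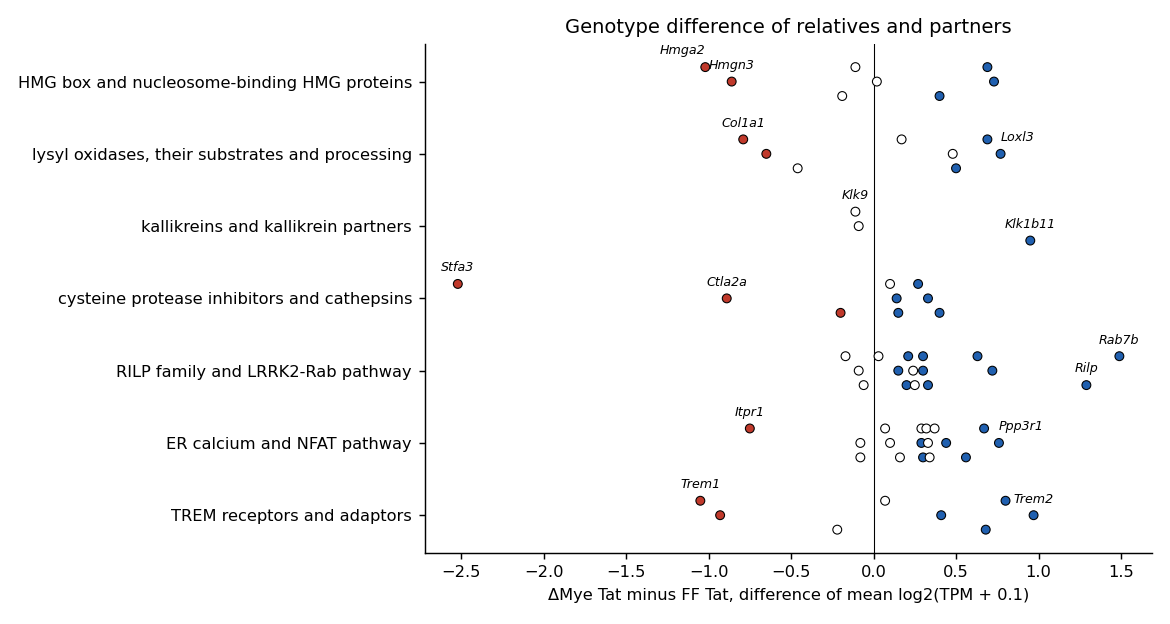
Difference of mean log2(TPM + 0.1) between ΔMye Tat and FF Tat (x axis) of the 69 tested relatives and partners, by list (rows), with blue for higher and red for lower at an adjusted p under 0.01 and white for neither. The 2 genes with the largest difference in each list are named, and Stfa3 at -2.52 lies farthest from 0.

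Neighbouring genes were tested to see whether a member differed together with its surroundings. Within 250 kb, measured between the lower-coordinate ends, the members had 52 tested neighbours, of which 28 rose in ΔMye Tat, 5 fell and 19 did not pass, with a median log2 difference of 0.32 (after scaling, 11 rose, 8 fell and the median was 0.11). Of all tested genes, 38.8% rose and 8.87% fell, with a median of 0.22 (after scaling, 16.4% and 18.8%). No member lies on the chromosomes of Ikbkb (8) or Lyz2 (10), and 3 of the 8 lie on chromosome 17, which holds 5.24% of the tested genes.

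Hmga1b had 22 tested neighbours, of which 13 rose, 1 fell and 8 did not pass (after scaling, 4 rose and 4 fell). The nearest on each side were Rfng, 18 kb away, which rose by 0.93 (adjusted p = 1.33e-05), and Cbr2, 33.3 kb away, at 0.51 (adjusted p = 0.0101). The 1 that fell was Slc16a3 (log2 difference of -0.91, adjusted p = 8.22e-10). Slc16a3 was also the lowest of the 22.

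A530064D06Rik lies beside the cluster of TREM receptors, which modulate myeloid activation. Of its 7 tested neighbours, 1 rose (Trem2), 3 fell and 3 did not pass, with the same counts after scaling. The 3 that fell were Trem1, Treml2 and B430306N03Rik, and the last 2 of these were named after their values were seen. B430306N03Rik was 47.9 to 54.8 TPM in FF PBS, 51 to 57.7 TPM in FF Tat and 26.2 to 28.2 TPM in ΔMye Tat (log2 difference of -1.01, adjusted p = 1.13e-12). As for A530064D06Rik, its FF groups overlapped and its ΔMye group lay below both in the deposited TPM. After scaling, B430306N03Rik was higher in FF Tat than in FF PBS (log2 difference of 0.74, adjusted p = 3.51e-13, limma). Trem1, an amplifier of inflammation, was 0.0465 to 0.158 TPM in FF PBS, 1.94 to 2.69 TPM in FF Tat and 0.8 to 1.31 TPM in ΔMye Tat (-1.05, adjusted p = 6.98e-05). Treml2 was 12 to 17.1 TPM in FF Tat and 7.21 to 8.81 TPM in ΔMye Tat (-0.93, adjusted p = 3.95e-08). Trem2, a lipid-sensing receptor, rose by 0.97 (adjusted p = 1.48e-12). In the list of TREM receptors and their adaptors, 4 of 8 tested genes rose in ΔMye Tat, 2 fell and 2 did not pass (after scaling, 3 rose and 2 fell).

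The other members had fewer or less varied neighbours. Ctla2b had 1, Ctla2a, which fell as given above. Rilpl1 had 11, of which 7 rose and 4 did not pass (after scaling, 2 rose). The nearest, Snrnp35 and Tmed2, differed by 0.04 and 0.07 with adjusted p = 0.515 and 0.0963, and after scaling by -0.17 and -0.14 with adjusted p = 0.0178 and 0.0207. Klk8 had 6, of which 4 rose and 2 did not pass (after scaling, 1 rose), with Klk9 and Klk1b11 the nearest on each side. Tmem178 had 1, Thumpd2, at 0.46 (adjusted p = 0.0892), and Lox had 1, Srfbp1, which rose by 0.53 (adjusted p = 1.16e-06). Hmga1 had 3, of which 2 rose and 1 did not pass, and AI413582, which overlaps it on the opposite strand, rose by 0.68 (adjusted p = 1.44e-10).

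**Figure D5:**
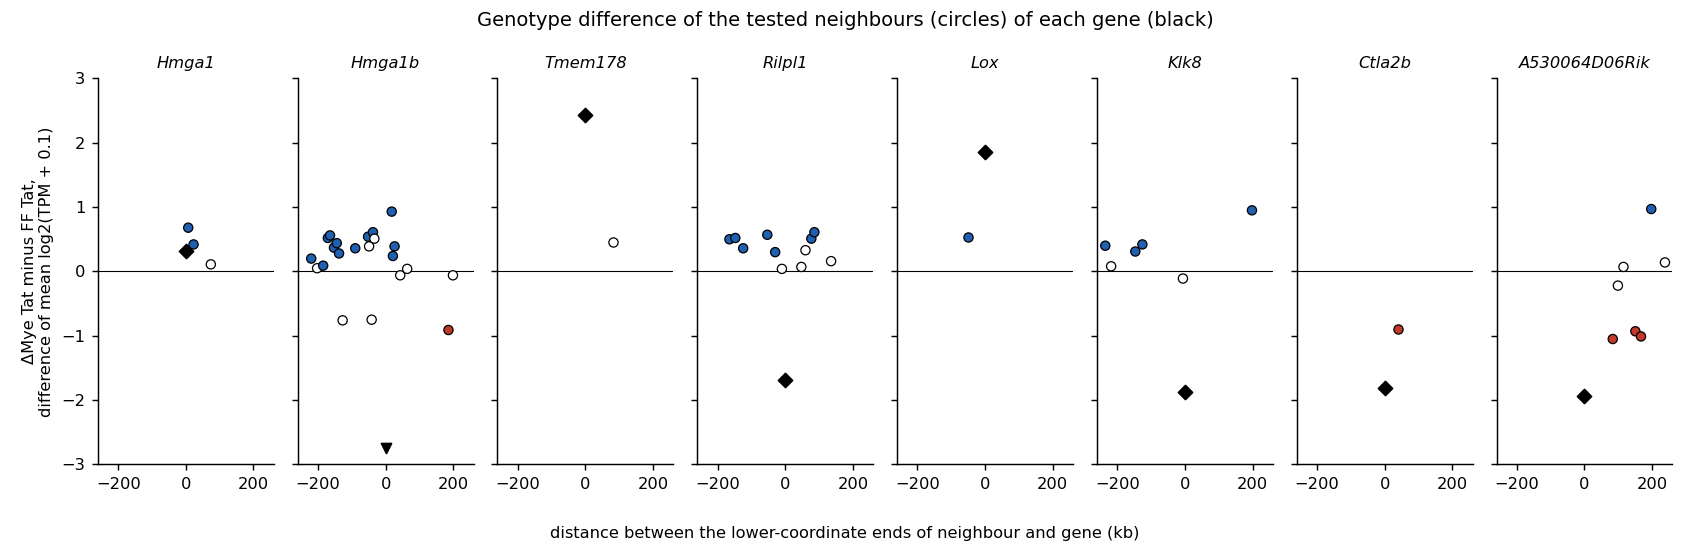
Difference of mean log2(TPM + 0.1) between ΔMye Tat and FF Tat (y axis) of the tested neighbours (circles, blue higher, red lower, white not past an adjusted p of 0.01) by distance in kb (x axis), one panel per member, with the member in black at 0. Hmga1b, at -9.41, is drawn as a triangle at the lower edge, and the neighbours of A530064D06Rik and Ctla2b include red points near -1.

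The cultures carried the RNA of macrophages throughout. The 10 macrophage markers summed to 25810 to 26821 TPM in FF PBS and 10333 to 10914 TPM in FF Tat. In ΔMye Tat they summed to 8026 to 8351 TPM, and most of each sum was Lyz2. Adgre1 was at means of 499, 441 and 512 TPM in FF PBS, FF Tat and ΔMye Tat. Other markers varied more, such as Csf1r at 381, 64 and 104 TPM and Cd14 at 203, 842 and 1009 TPM. Of 9 tested macrophage markers, 4 rose and 3 fell between FF Tat and ΔMye Tat (after scaling, 1 rose and 3 fell). Neutrophil markers summed to 66.6 to 77.8 TPM in FF Tat and 87.4 to 106 TPM in ΔMye Tat, with Elane at 0 in every library. S100a8 carried most of that sum, at means of 68.6 and 91.4 TPM, while S100a9 was at 0.842 and 0.716 TPM and Retnlg at 0.671 and 0.298 TPM. B cell markers summed to 23.8 to 27.4 and 23.1 to 35.9 TPM, NK cell markers to 7.81 to 10.5 and 10.7 to 14.2 TPM, eosinophil markers to 1.53 to 2.25 and 1.04 to 1.51 TPM, and dendritic cell markers to 41.4 to 46.2 and 22.4 to 27 TPM in the same 2 groups. The part of these cells in the levels of the 8 genes was not tested.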

How the data were processed

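RNA-Seq of PMs was analysed in 17 libraries. The authors quantified reads with Salmon on the Ensembl GRCm38 annotation and deposited gene-level TPM, transcript abundance normalised to transcript length and to the library total, per the study's methods, and the submitters' processing notes name the build mm10. TPM are not counts, so the edgeR test of the study could not be run on them. The labels give 3 days between thioglycollate and collection and the methods 4 days. The deposited table holds no depth, so no counting interval is given.

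Groups came from the genotype and treatment labels. A background allele that all 3 groups share is not reported here. The 10451 of 21683 genes that reached 1 TPM in 5 or more libraries were fitted with limma 3.58.1 (R 4.3.3) after log2(TPM + 0.1) (all 3 groups, no covariate, 14 residual degrees of freedom, eBayes with trend). P-values were adjusted by Benjamini-Hochberg over all tested genes, and a call was an adjusted p under 0.01 and a fold over 3. A fold on this scale understates the change of low genes. Median-ratio scaling used 11246 genes above 0 in all libraries. The script was tested on simulated data. The members, lists and rules were chosen with earlier results of these data known. Genes named were the 8 members, Ikbkb, Lyz2, the closest paralogs, the 2 tested genes with the largest difference between the Tat groups in each list, the nearest tested neighbour on each side, and the 3 genes with the highest Pearson correlation with each member. Treml2, B430306N03Rik and the other genes with the members' pattern were named after their values were seen, and single markers where they carry or depart from a marker sum. Positions came from GENCODE M21, shared 31-base words from its transcripts and start windows from RefSeq (GRCm38.p6), with Python 3.11.15. Alternatives were other pseudocounts (0.5 and 1), a filter at 5 TPM or none, scaling by median ratios, a fit of the compared groups only, robust eBayes with array weights, no fold threshold, windows of 100 and 500 kb, and each library left out.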

Additional observations from a re-analysis of the deposited data

Results flagged for a closer look

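In 27 groups of 5 or 6 libraries (the 8 genes and the sum of Hmga1 and Hmga1b in 3 groups), the highest or lowest library lay unusually far from the others by Dixon's criterion in 3, where chance gives about 5%. Hmga1b was 241 TPM in FF PBS library 5 and 212 to 218 TPM in the other 5. Hmga1b was 0.939 TPM in ΔMye Tat library 22 and 0 to 0.209 TPM in the other 4. A530064D06Rik was 9.61 TPM in FF Tat library 7 and 7.42 to 7.81 TPM in the other 5. Without FF Tat library 7, A530064D06Rik kept its direction in all 3 contrasts, and so did Hmga1b without either of its libraries.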

How the results depend on the processing

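No paired analysis was run, because the labels do not say whether PBS and Tat cells came from the same mice. The library numbers (1 to 6, 7 to 12 and 19 to 23) do not recur between groups and so cannot show it. Leaving out each library in turn gave 72 to 83 calls between ΔMye Tat and FF Tat (79 with all), 2553 to 2583 with Tat (2576), 1615 to 1645 between ΔMye Tat and FF PBS (1623), 15 to 17 genes with the pattern of the members (15) and 7 of the 8 members called each time. Between the Tat groups 39 to 46 relatives and 30 to 35 neighbours passed, and with Tat 55 to 58 and 46 to 47.

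Between ΔMye Tat and FF Tat, 38 genes were called with 0.5 TPM and 30 with 1 TPM, and with 1 TPM 2 of the 8 members were called (Hmga1b and Tmem178), 6 genes had the members' pattern, 1625 were called with Tat and 948 between ΔMye Tat and FF PBS. A filter at 5 TPM left 43 calls between the Tat groups, 1054 between ΔMye Tat and FF PBS and 7 genes with the pattern, and Klk8 was not tested, and without a filter 28 had the pattern. With no fold threshold, 4982, 8842 and 7977 genes passed in the 3 contrasts. Windows of 100 and 500 kb gave 15 and 52 neighbours that passed between the Tat groups and 25 and 77 with Tat, in place of 33 and 46, since they hold fewer or more genes. After median-ratio scaling 19 neighbours passed between the Tat groups. The log2 ratio of the summed Hmga1 and Hmga1b means became -0.41, 0.41 and 0.00 in place of -0.20, -0.23 and -0.42, and Hmga1 turned from -0.25 to 0.38 with Tat. Scaling also turned the sign of the small Tat differences of Hmga1b, Tmem178, Klk8 and A530064D06Rik, and Klk8 was 0.01 without FF Tat library 8. In the contrasts of ΔMye Tat, 0 of 175 values each changed sign. The remaining alternatives gave counts within 1.5 times. The causes were not tested.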
